A study of Caenorhabditis elegans with 2 samples.

Results

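mir-34 is a microRNA (miRNA) gene of Caenorhabditis elegans, and its hairpin gave small RNAs from both arms in the worms sequenced here. Its members were the clusters of overlapping reads on chromosomes whose sense annotation names mir-34 exactly, and there were 2 of them among 51569 deposited clusters, 1 for each arm of the hairpin. mir-34 was selected on its read counts per arm, which an earlier reading of these data had shown to be fairly even. The arm values below are therefore a description with no test. The RNA came from whole worms with fem-1 as their strain label, after a gene of the sex-determination pathway without which hermaphrodites make oocytes but no sperm. The 2 groups of the series have 1 library each and share that strain and tissue: the monophosphate library, made to catch small RNAs with a single phosphate at the 5′ end, and the polyphosphatase library, treated to catch also those with a triphosphate. The values here are those of the monophosphate library, and the polyphosphatase library was not analysed here. The sources used here give no age, temperature or fem-1 allele. With 1 library there was no replicate, and the exact 95% intervals below cover only the error of counting.

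miRNAs are cut in 2 steps: Drosha trims the primary transcript to a hairpin in the nucleus, and Dicer then removes the loop, which leaves a short duplex of the 5′ and the 3′ arm. An Argonaute protein usually keeps 1 strand of the duplex, the guide, and the other strand is degraded, so that small RNA libraries hold far fewer reads of it. The miR-34 family is conserved from worms to mammals, where its genes are targets of p53. In C. elegans mir-34 has been linked to the response to DNA damage, to ageing and to robust development.

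The deposited clusters on chromosomes numbered 49661 and held 1412353 reads of a selected length range, 18 to 26 nt by the name of the list. Of these reads, 765038 lay in 238 clusters that name 1 of 155 miRNAs, or more than 1. These totals are the depth of the list and not of the library.

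Both arms of mir-34 were well above the typical cluster. The 5′ arm held 377 reads (Poisson interval 340 to 417) at X 2969803 to 2969825 on the minus strand, and the 3′ arm held 267 reads (236 to 301) at X 2969767 to 2969788 on the same strand. The sources used here name no genome build for these positions. The median cluster on chromosomes held 1 read. On a sequence that the list calls markov, taken here as a background for randomly placed reads, the median cluster also held 1 read, and 1 of its 1908 clusters held at least as many reads as the 3′ arm of mir-34, with 486.

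**Figure D1:**
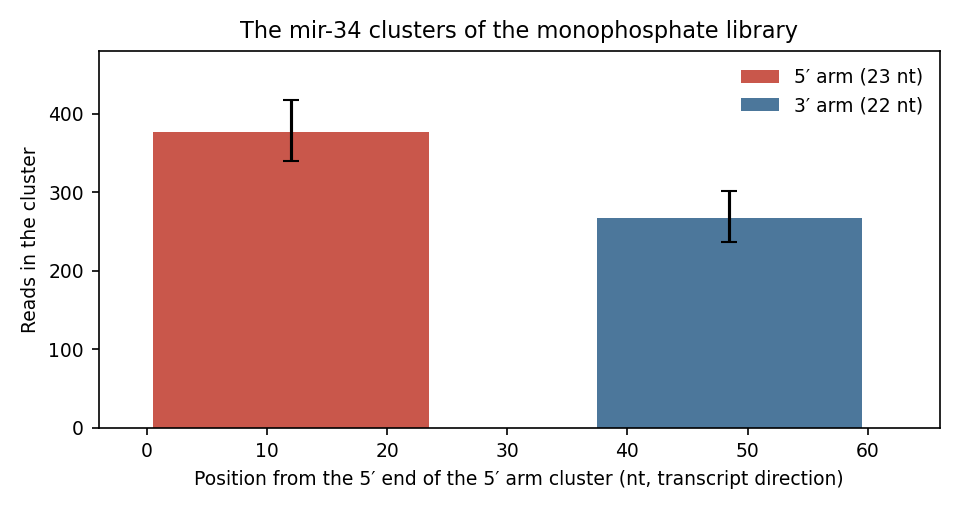
Reads (y axis) in the 5′ arm cluster (red) and the 3′ arm cluster (blue) of mir-34, drawn along the transcript from the 5′ end of the 5′ arm cluster (x axis, nt). Bars span each cluster's width and error bars are exact Poisson 95% intervals of the counts; the 5′ arm holds 377 reads and the 3′ arm 267, with 14 nt between them that no cluster covers.

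The reads were divided fairly evenly between the arms, with more on the 5′ arm. The 5′ arm took 58.5% of the 644 reads of both arms (Clopper-Pearson interval 54.6 to 62.4) and the 3′ arm 41.5%, a ratio of 1.41 (1.20 to 1.66). The excess of the 5′ arm was 110 reads. These are shares of sequenced molecules: ligation and amplification differ between small RNA sequences, and their part in the ratio was not tested.

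The arms had nearly the same number of reads per distinct sequence. The 5′ arm held 14 distinct sequences and the 3′ arm 10, so each sequence was read 26.9 times on average on the 5′ arm and 26.7 times on the 3′ arm. Counted by distinct sequence, the 5′ arm took 58.3%, with a wide interval of 36.6 to 77.9 because only 24 sequences were counted. Among 38 arms of other miRNAs with 100 to 1000 reads the median was 21.98 reads per distinct sequence, from 10.9 to 69.2, and 24 of the 38 lay below both arms of mir-34. The values of both mir-34 arms lay well inside that range.

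Most other pairs of arms were less closely matched. For comparison, 45 miRNAs had at least 100 reads over 2 separate clusters of at most 30 nt, 1 for each arm. A further 20 miRNAs of that depth had only 1 such cluster or no pair of them, and 15 had a leading cluster wider than 30 nt. These are not in the comparison. Among the 45, the number of reads per distinct sequence on the arm with more reads was 1.01 times that on the other arm in mir-34, against a median of 24.4 times in the other 44. No other miRNA of the 45 came as close to 1; the nearest, named after its values were seen, was mir-63 with 0.968. The read counts enter this ratio, so it is not independent of the arm share.

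**Figure D2:**
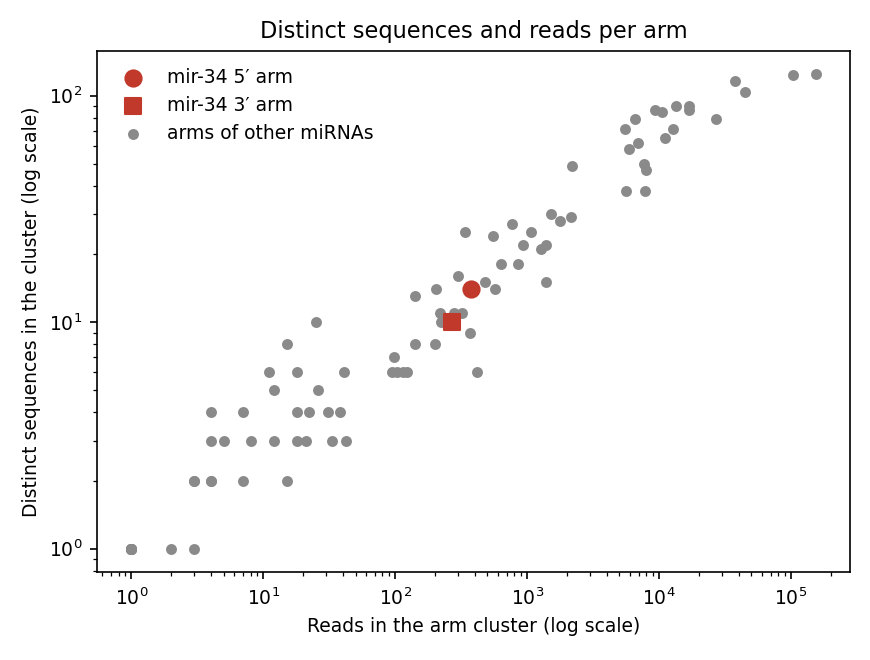
Distinct sequences (y axis, log scale) against reads (x axis, log scale) in each arm cluster, for the arms of mir-34 (red circle, 5′ arm; red square, 3′ arm) and of the 44 other miRNAs (grey). Both arms of mir-34, at 14 sequences in 377 reads and 10 in 267, lie within the band of the other arms.

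The widths of the clusters were common ones. The 5′ arm cluster was 23 nt wide and the 3′ arm cluster 22 nt, against medians of 24 nt and 23 nt in the other 44 miRNAs. Of these 44, 11 also had a 5′ arm of 23 nt and 15 a 3′ arm of 22 nt. A cluster reaches from the first to the last base of its reads, so no read of the 3′ arm covered more than 22 nt of the genome. A window of 22 nt has room for 15 different unedited reads of at least 18 nt, and a window of 23 nt for 21. The distinct sequences of mir-34 would fill 66.7% of these placements on each arm, or less where a sequence differs from another by an edit. In 14 arms of other miRNAs with 200 to 500 reads the median was 42.2%, and the values ran from 23.8% to 100%. In all 71 arms of other miRNAs with at least 100 reads the median was 71.4%, and the values ran from 13.3% to 527%. So mir-34 lay above the median of the first set and below that of the second. Values above 100% cannot come from unedited reads alone, so the percentage is not a measure of placements filled in every arm. Read ends are not listed, so which ends varied was not analysed here.

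Edits, the differences from the genome that the list counts per cluster, were found on mir-34 at a rate near the median of other miRNAs. Each arm held 3, or 0.796 per 100 reads on the 5′ arm (Poisson interval 0.164 to 2.33) and 1.12 per 100 reads on the 3′ arm (0.232 to 3.28). Together this was 6 edits in 644 reads, 0.932 per 100 (0.342 to 2.03). The median of 71 arms of other miRNAs with at least 100 reads was also 0.932 per 100, and 29 of the 71 lay below the 5′ arm and 48 below the 3′ arm. With 3 edits an arm, a difference between the arms was not detectable at this depth. Neither arm had a conversion event.

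The uniqueness value that the list gives for a cluster was 42 on the 5′ arm and 43 on the 3′ arm, and its median was 43 in the 71 other arms. The sources used here do not define it. Its name speaks of a maximum, but the list's cumulative value divided by reads was above it on both arms, at 42.6 on the 5′ arm and 43.3 on the 3′ arm, and in 4024 of all clusters. By contrast, the 3′ arm of mir-243, the miRNA with the most even arms of the 45, had a value of 8, while its 5′ arm had 43. Low values were also found in pairs with uneven arms, at 8 and 13 on the 5′ and 3′ arms of mir-47 and 16 on the 5′ arm of mir-65.

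The arms lay close together. The gap between the mir-34 clusters was 14 nt, and the whole pair spanned 59 nt, the shortest of the 45 pairs. The other 44 spanned 60 to 103 nt, with a median of 64.5 nt, and their gaps ran from 11 to 52 nt with a median of 17.5 nt. A smaller gap than that of mir-34 was found in 8 of the 44, and an equal one in 3. In mir-34 the clusters made up 45 nt of the span. No read cluster covered the gap, the place of the hairpin's loop, and none lay on the outer flanks of the arms.

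Among the 45 miRNAs, mir-34 had the second most even arms. The share on its arm with more reads, 58.5%, stood against a median of 99.7% in the other 44, of which 36 exceeded 95%. At that median, 644 reads would have held 2.19 reads of the arm with fewer reads, where mir-34 had 267. Only mir-229 had more reads on the arm with fewer, with 338. In the other 44 miRNAs the median of that arm was 13.5 reads, 19 had under 10 and 7 had 1.

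**Figure D3:**
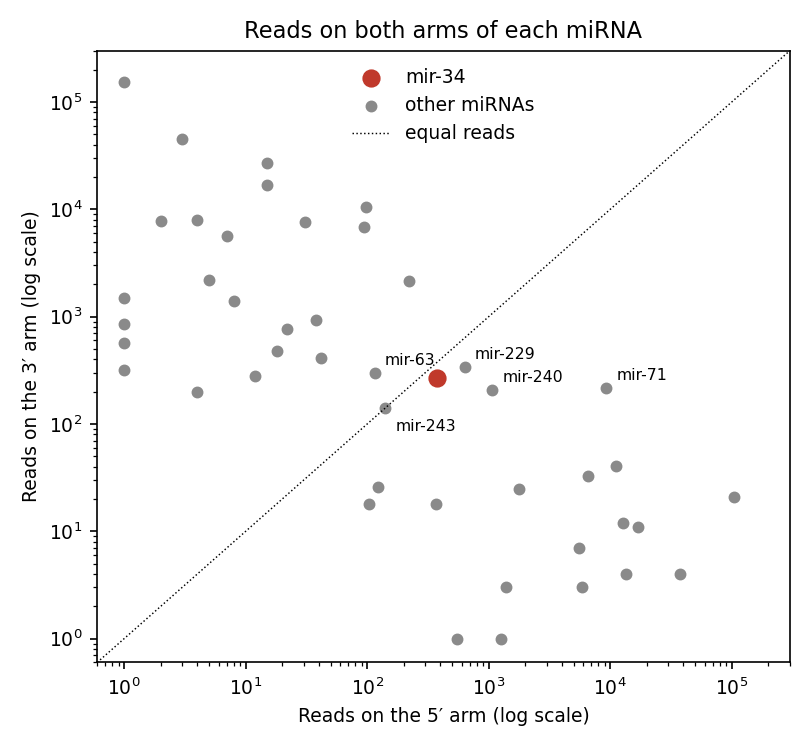
Reads on the 5′ arm (x axis, log scale) and on the 3′ arm (y axis, log scale) of mir-34 (red) and of 44 other miRNAs with at least 100 reads over both arms (grey); the dotted line marks equal reads. mir-34, with 377 and 267 reads, lies near the line, while most others lie far from it on either side.

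By the share on the 5′ arm, the 5 miRNAs nearest to mir-34 were mir-229, mir-243, mir-241, mir-240 and mir-230. mir-34 had 58.5% on the 5′ arm, and mir-229 had 65.2% (62.1 to 68.2; 633 and 338 reads on the 5′ and 3′ arms). mir-243 had 49.8% (43.8 to 55.8; 141 and 142 reads). The spread of these shares between libraries is not known. The next 3 lay farther away. mir-241, a let-7 family member, had 82.6% (75.5 to 88.3), mir-240 83.9% (81.8 to 85.9) and mir-230 85.1% (77.5 to 90.9). mir-229 was unlike mir-34 in shape. Its arms lay 52 nt apart against 14 nt in mir-34, and its 5′ arm had 2.60 times as many reads per distinct sequence as its 3′ arm, against 1.01 times in mir-34.

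**Figure D4:**
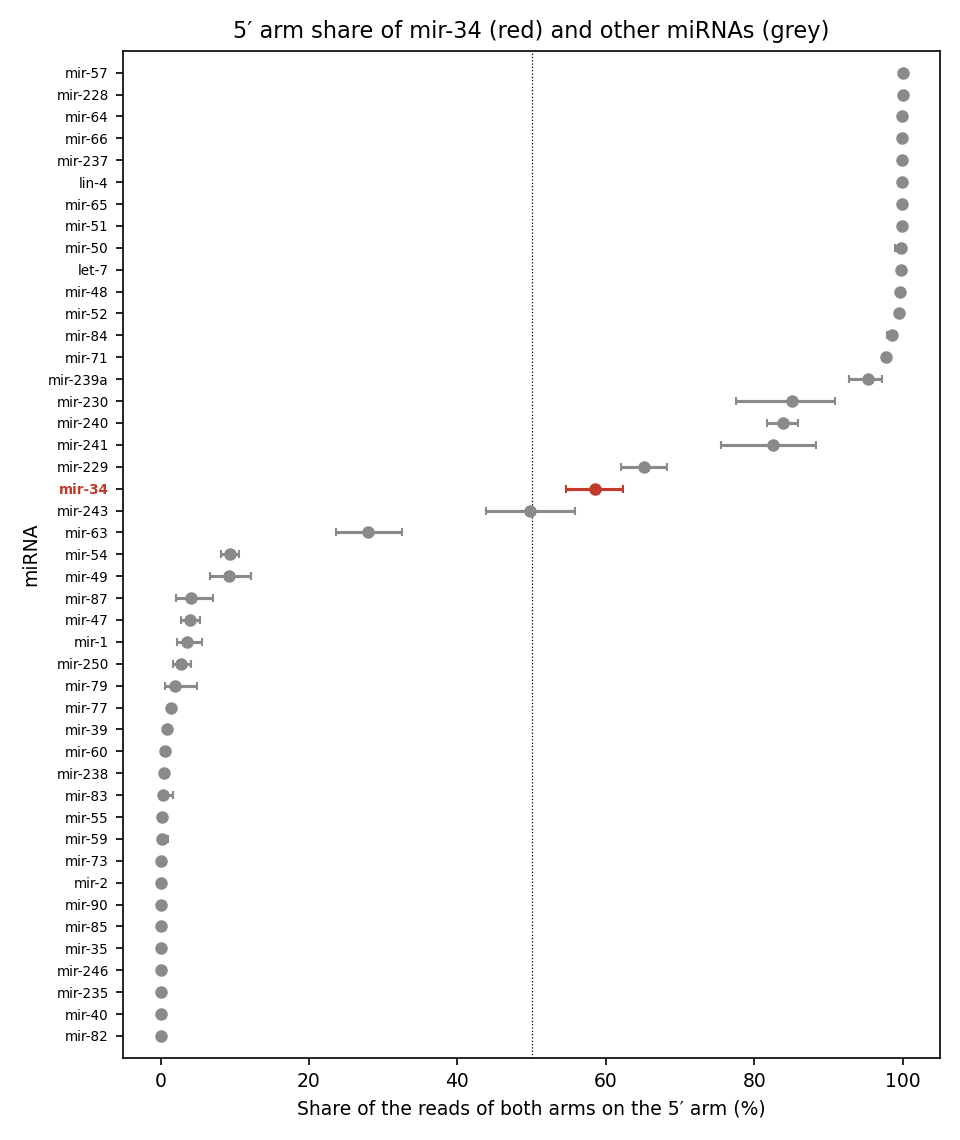
Share of the reads of both arms on the 5′ arm (x axis, percent) for mir-34 (red) and 44 other miRNAs (grey), ordered by that share. Points are single counts of 1 library, bars are exact 95% binomial intervals, and the dotted line marks equal reads. mir-34 at 58.5% stands between mir-229 at 65.2% and mir-243 at 49.8%, and most miRNAs lie near either end.

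Most miRNAs of like abundance had few reads on 1 arm. In the 13 other miRNAs with 322 to 1288 reads over both arms, the arm with fewer reads held a median of 18 reads, from 1 to 338, against 267 in mir-34. The share of the arm with more reads exceeded 95% in 9 of these 13. lin-4, a timing miRNA of larval development, had 1 read on its 3′ arm against 1270 on its 5′ arm. mir-1, a miRNA of muscle, had 18 reads on the 5′ arm and 480 on the 3′ arm.

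The annotation of the list treats the arms unequally. The 5′ arm cluster names the locus gene Y41G9A.7 in addition to mir-34 and is classed as a non-coding exon, and the 3′ arm cluster names mir-34 alone and is not. In 42 of the 45 miRNAs, mir-34 among them, 1 arm had this exon class and it was the arm with more reads. In lin-4 both arms had it, and in mir-240 and mir-230 it was on the arm with fewer reads. By share of reads, the exon arm of mir-34 was the lowest of the 42 after that of mir-243.

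In total abundance mir-34 was well above the median miRNA. Its 644 reads (595 to 696) were 0.0842% of miRNA reads and 0.0456% of the reads on chromosomes, which placed it at rank 46 of 155 miRNAs. The median miRNA had 121 reads. The 3′ arm alone held more reads than 96 of the 155 miRNAs had in all their clusters. Just above mir-34 were mir-86 with 755 reads (702 to 811) and mir-46 with 735 (683 to 790), and just below it mir-244 with 636 (588 to 687) and mir-59 with 567 (521 to 616). mir-34 had 1.01 times the reads of mir-244 (exact 95% interval of the ratio 0.906 to 1.13), a difference within counting error. Its ratio was 0.853 (0.767 to 0.949) to mir-86, 0.876 (0.787 to 0.975) to mir-46 and 1.14 (1.01 to 1.27) to mir-59, and these intervals do not include 1. Among 51 miRNAs on the X chromosome mir-34 ranked 12th, with 0.314% of their 205044 reads.

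The mir-34 locus stood apart from other clusters. No other cluster lay within 5 kb on either strand, which was also so for 24 of 150 other miRNAs; their median was 3 other clusters. The nearest clusters were 27.8 kb away at lower positions, a single read in Y71H10A.1, and 34.5 kb away at higher positions, 63 reads of mir-359. The nearest on the minus strand was mir-249 at 36.6 kb, with 174 reads. The list gives mir-34 no host gene, in an intron or otherwise. In the WBcel235 gene table, used for gene order only, mir-34 lies between gbb-1, which encodes a GABA-B receptor subunit, and aakg-3, which encodes a gamma subunit of AMP-activated kinase. No cluster of the monophosphate list was antisense to mir-34, and a count of 0 allows up to 3 reads, or 0.466% of its sense reads. This limit does not cover antisense RNAs with a triphosphate, which the polyphosphatase library was treated to catch also.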

How the data were processed

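Per the labels' protocols, RNA of whole fem-1 worms was extracted with TRIZOL and sequenced after Illumina small RNA preparation. The submitters' processing notes name Bowtie2 2.1.0; build, annotation release, trimming and filters are not given there. The list of clusters was taken as that of the monophosphate library, whose title alone its name abbreviates. Its 51569 lines each state support from 1 library.

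Per the file's attributes, the deposited values are raw read counts per cluster, distinct sequences, edits, width and uniqueness, without normalization. A deposited score column, an entropy without a unit, was not used. A deposited column counts conversion events.

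Clusters on markov, a sequence that the list does not explain, were kept out. A cluster that names several miRNAs counted for each. Arms were the leading cluster of a miRNA and the cluster with the most reads beside it, both at most 30 nt wide, on 1 strand and at most 150 nt apart. Of 80 miRNAs with at least 100 reads, 45 had such a pair, 15 had a leading cluster over 30 nt and 20 had 1 narrow arm only or no pair. Shares have Clopper-Pearson intervals and counts exact Poisson intervals, and ratios of counts exact conditional intervals (scipy 1.17.1, Python 3.11.15). Without molecular identifiers, PCR copies cannot be told from separate molecules, so these intervals, and the limit of 3 reads used for a count of 0, cover only the error of counting. Arm pairing was tested on simulated data.

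Members, lists and comparisons were chosen with earlier results of these data known. Named miRNAs were the 5 nearest to mir-34 by 5′ arm share and the 2 above and the 2 below it in reads, and others are given as examples. Genes that the list annotates within 5 kb were also to be named, but no other cluster lay within that distance. The genes gbb-1 and aakg-3 were named from gene order alone, and their distances were not analysed here. A rule on shared seeds could not be applied, as no mature sequences were used here.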

Additional observations from a re-analysis of the deposited data

How the results depend on the processing

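Of 20 values recomputed under 12 alternative settings, 16 stayed within the counting interval or spread of the reported value. Some of the 16 were fixed in advance, because mir-34 had 1 cluster on each arm and neither named another miRNA. Taking the leading cluster of each arm could not change its share, nor could dividing shared clusters change its reads. With 6 edits in 644 reads, taking off the edits could change the share only slightly. The 5′ arm share of mir-34 was 58.3% by distinct sequences and 58.6% with the number of edits taken off the reads, against 58.5% as reported. Its place among the most even arms moved with the miRNAs compared. Counted from the most even, mir-34 was at place 2 of 45, at place 1 of 35 with at least 500 reads over both arms, and at place 1 of 42 without pairs in which an arm had a uniqueness value under 20, an alternative chosen after seeing the data; mir-243 is left out in both. By distinct sequences it was at place 4 of 45, and the median share of the arm with more reads in the other 44 was 91.6%, against 99.7% by reads. Another setting, also chosen after seeing the data, added the 20 miRNAs without a pair at 0 reads on the other arm. There the median share by reads was 99.9% and mir-34 stayed at place 2 of 65. Its rank by total was 46 by reads and 43 by distinct sequences. No paired analysis was possible because each group has 1 library and no test was made. Depth limits the edits, at 3 an arm, and the distinct sequences, at 24 in all.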
